A study of Mus musculus with 8 samples.

Results

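Heat shock chaperones were followed here as a set of 58 genes expressed in mouse pancreatic islets. They were the protein-coding genes of the deposited table whose symbols begin with Hspa, Hspb, Hspd, Hspe, Hsph, Hsp90a, Dnaja, Dnajb or Dnajc, together with Hsf1, Bag3 and Hsp90ab1. Hspa5, Hspa13, Dnajb9, Dnajb11, Dnajc3 and Dnajc10, which act in the lumen of the endoplasmic reticulum (ER), were left out by name. A mean above 0 log2 CPM over the 8 libraries was also required, where CPM is the count per 1000000 counts, scaled by the authors. Of 69 annotated protein-coding genes that fit these names, 59 stood in the table and 58 passed that level, out of 12231 genes of the table that passed it. Hspa12b, at a mean of -0.72 log2 CPM, was the 1 gene under it, and the member nearest above it was Dnajc17 at 0.73. The 10 other names were not analysed here. The set is broader than the cytosol and mitochondria: 7 members encode J proteins of the ER membrane or lumen, and 2, Hspb11 and Hspbap1, carry a small heat shock protein name without being chaperones of that kind.

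Islets were taken from 10-week-old female NOD mice, an inbred strain that develops autoimmune diabetes, after treatment with PAHSA (4 libraries) or with vehicle (4 libraries). PAHSAs are lipids in which palmitic acid is joined by an ester bond to hydroxystearic acid. The sample labels spell the treatment PASHA, both groups share the NOD genotype, and dose, route and duration were not given by the labels. The design text counts 4 mice per group whereas the protocol describes islets of 2 mice combined per set, so whether a library holds 1 mouse or a pool cannot be told apart here; the spread that p-values rest on is that between libraries.

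Heat shock proteins hold unfolded proteins, help them fold or pass them on for degradation. Hsp70 proteins work in cycles of ATP use that J proteins (the Dnaj genes) start and nucleotide exchange factors end, Hsp90 proteins finish the folding of kinases and receptors, and Hspd1 with Hspe1 forms the folding chamber of the mitochondrial matrix. Heat and other damage to proteins release the transcription factor HSF1 from its chaperones, and HSF1 then switches on the inducible members, such as Hspa1a, Hspa1b, Dnajb1 and Hsph1. Beta cells make large amounts of secreted protein, so folding capacity is a recurring theme of islet biology.

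Estimated counts recovered from the deposited values ranged from 35356278 to 39359123 in PAHSA and from 34461742 to 45236238 in vehicle libraries. Islet hormone genes were high in every library, with Ins2 at 16.32 to 16.66 log2 CPM in PAHSA and 16.22 to 16.62 in vehicle, and Gcg at 16.01 to 16.29 in PAHSA and 15.88 to 16.07 in vehicle. Markers of digestive acinar cells were less abundant in PAHSA: all 25 tested markers had lower means, and their summed level was 477.5 to 19870 CPM in PAHSA and 13000 to 52130 CPM in vehicle, lowest in PAHSA replicate 4. Markers of duct cells were lower for 6 of 8 and of stellate cells, fibroblasts and pericytes for 9 of 10 in PAHSA, macrophage and dendritic cell markers for 4 of 5 and endothelial markers for 4 of 4. Beta cell markers were higher for 8 of 10 and alpha cell markers for 4 of 6, and the lymphocyte markers were not analysed here. In bulk RNA, fewer cells of a type and less RNA per cell cannot be told apart.

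HSF1 binds inverted repeats of a short unit, GAA or its complement TTC, and the promoters of several members hold such repeats. In the reference promoters of RefSeq (GRCm38.p6, strain C57BL/6J and not NOD; windows from 250 bases before to 49 bases after the start), the words GAANNTTC and TTCNNGAA were searched, each of which reads the same on both strands. Of 46 members with a window, 14 (30.4%) held at least 1 word, against 17% of 27025 genes, and 4 (8.7%) held 3 or more units in a row, against 0.662% of all genes. Those 4 were Hspd1, Hspe1, Hsph1 and Dnajb6. Hspd1 and Hspe1 stand head to head with starts 216 bases apart, and the printed stretch is everything between them (chr1:55087933-55088147, read in the direction of Hspe1), which both genes share. The Hspa1a (chr17:34972235-34972278, minus strand) and Hspa1b (chr17:34959317-34959360, minus strand) stretches are identical, and their whole windows match at 296 of 300 bases. Hsph1 (chr5:149636288-149636387, minus strand), Dnajb6 (chr5:29735834-29735882, plus strand) and Hspb1 (chr5:135887784-135887847, plus strand) show rows of units or repeated words, and Dnaja4 (chr9:54699451-54699532, plus strand) and Bag3 (chr7:128523607-128523632, plus strand) belong to members with some of the smallest p-values below. Capitals mark the words, and a match is a description of letters and not of binding.
Hspd1 and Hspe1: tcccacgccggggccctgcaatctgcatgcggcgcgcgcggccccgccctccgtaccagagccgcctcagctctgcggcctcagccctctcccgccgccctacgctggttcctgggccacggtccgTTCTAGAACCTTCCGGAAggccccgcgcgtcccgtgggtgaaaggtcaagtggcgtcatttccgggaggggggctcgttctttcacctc
Hspa1a: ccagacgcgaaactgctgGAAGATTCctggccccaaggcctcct
Hspa1b: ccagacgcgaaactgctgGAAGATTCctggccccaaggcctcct
Hsph1: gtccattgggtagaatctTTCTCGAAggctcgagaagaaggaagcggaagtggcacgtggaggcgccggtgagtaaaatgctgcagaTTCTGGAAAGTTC
Dnajb6: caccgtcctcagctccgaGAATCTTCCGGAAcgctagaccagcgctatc
Hspb1: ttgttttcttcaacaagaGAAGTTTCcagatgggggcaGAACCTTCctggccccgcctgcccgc
Dnaja4: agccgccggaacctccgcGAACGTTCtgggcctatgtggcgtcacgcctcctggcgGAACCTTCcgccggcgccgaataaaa
Bag3: gttctctggatgggaccaGAAGTTTC

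**Figure D1:**
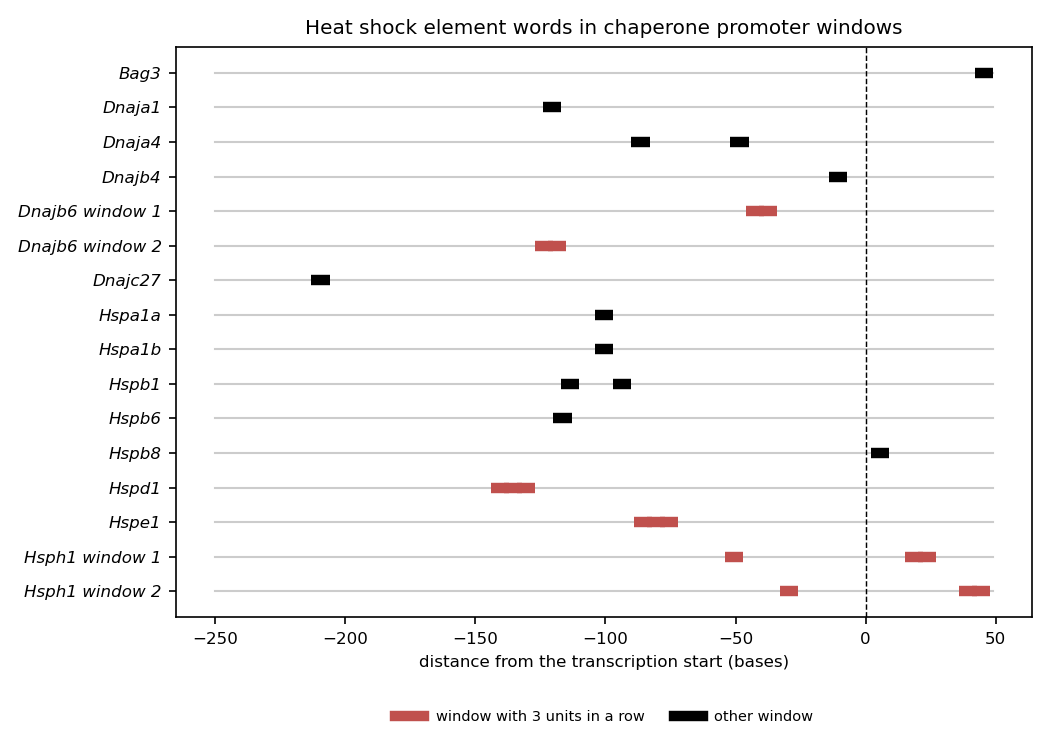
Positions of heat shock element words (thick bars) in the promoter windows of the 14 members that hold one; the horizontal axis is the distance in bases from the transcription start (dashed line) and genes with more than 1 RefSeq start have a line per window. The Hspa1a and Hspa1b words lie at the same place, 104 to 97 bases before the start, and rows of 3 or more units (red) stand in the windows of Hspd1, Hspe1, Hsph1 and Dnajb6.

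No chaperone gene of the set passed the test for a difference between PAHSA and vehicle islets. By limma with Benjamini-Hochberg adjustment over 12231 genes, 0 of 58 members had an adjusted p under 0.05 (0.0% of all genes did). At an unadjusted p under 0.05, 2 members were higher in PAHSA, Dnajc18 and Dnaja4, where 3.02% of all genes were, and 0 were lower, where 4.29% of all genes were. The first count was 0 without vehicle replicate 3, 1 without PAHSA replicate 1, PAHSA replicate 4 or vehicle replicate 4, and 4 under quantile normalization. The second was 1 without PAHSA replicate 1, PAHSA replicate 3 or vehicle replicate 1, and 2 without PAHSA replicate 2. These were not the same genes throughout: of 18 alternatives run, Dnajc18 was at an unadjusted p under 0.05 in 11 and Dnaja4 in 8. With the mean of the acinar markers as a covariate, the 2 members were Hspb1 and Hspd1, and without PAHSA replicate 4 the 1 member was Hsp90ab1. For 0 members did all PAHSA libraries lie to one side of all vehicle libraries, which 4.01% of all genes did.

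The differences were small as well as uncalled for most members. In PAHSA 32 members had the higher mean and 26 (44.8%) the lower, against 50.9% lower among all genes, and the median log2 fold change (PAHSA minus vehicle throughout, in log2 CPM) was 0.03, against -0.0056 over all genes. Without PAHSA replicate 1 or without PAHSA replicate 3, 31 of 58 members had the lower mean in PAHSA, with medians of -0.0092 and -0.0080. With the mean of the acinar markers as a covariate the median was 0.12, and no member was called. For 48 of 58 members the 95% confidence interval of the difference lay within a 2-fold change either way, as it did for 63.8% of all genes, and for 27 it lay within a 1.5-fold change, as for 31.4% of all genes. The members' median SD within groups was 0.24 on the log2 scale, against 0.35 over all genes. Among the members with the widest intervals, Dnajc28, Dnajb3, Dnajc17 and Hspbap1 had mean levels of 1.45, 1.16, 0.73 and 2.94 log2 CPM.

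**Figure D2:**
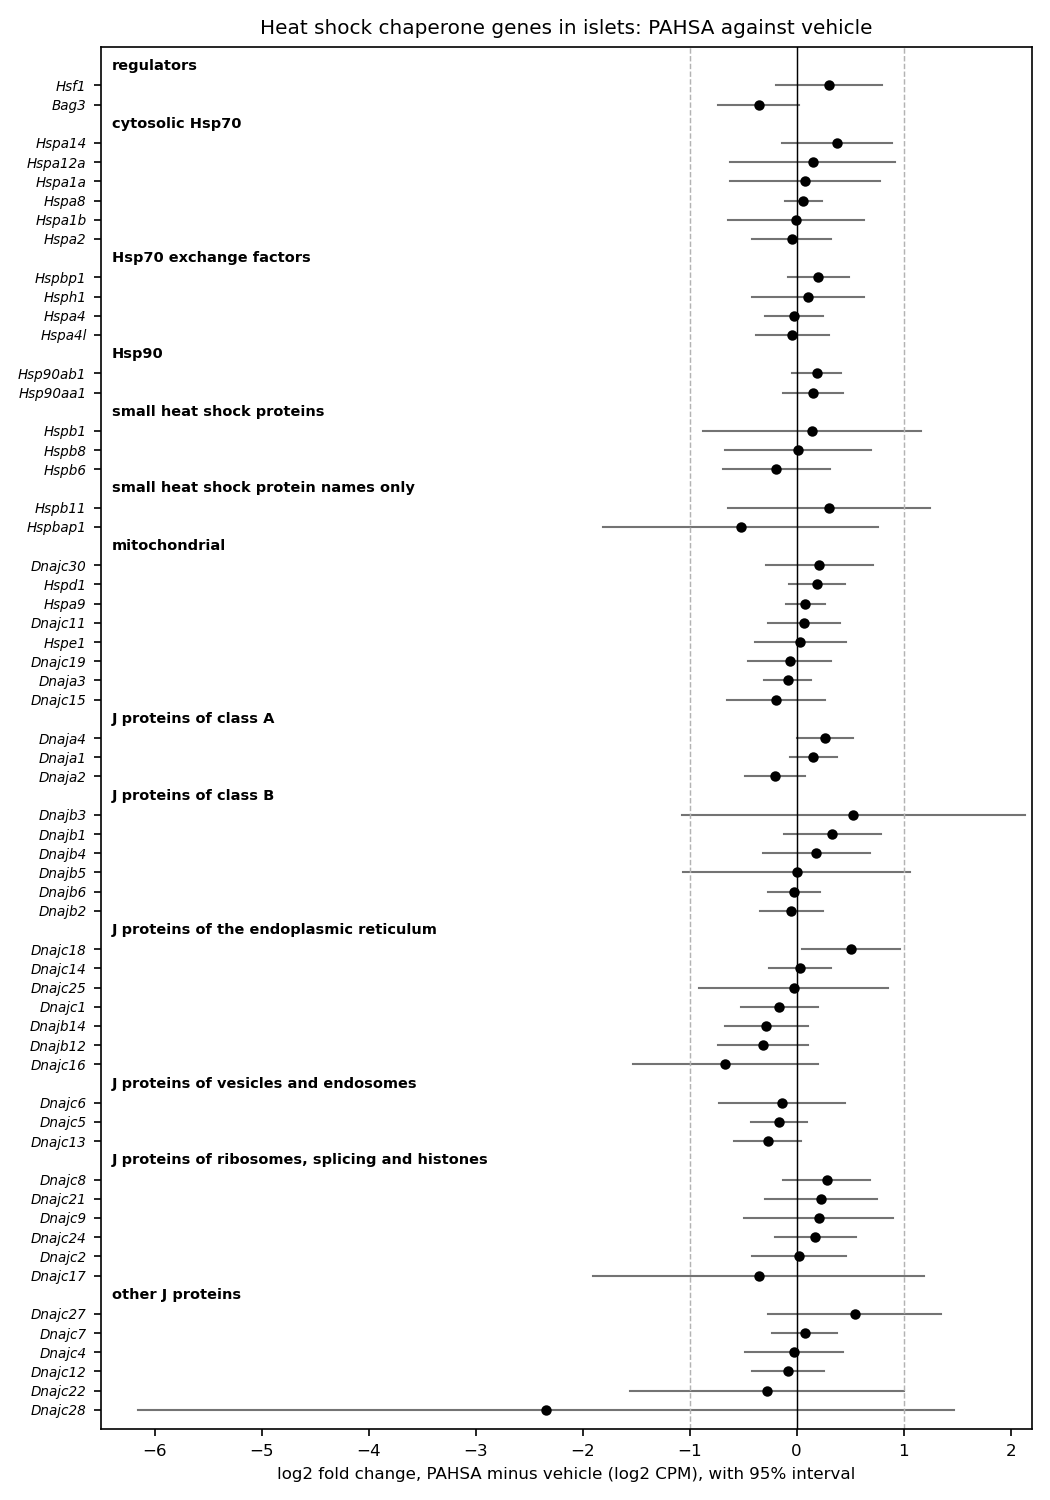
The log2 fold change of each of the 58 members (points; PAHSA minus vehicle, log2 CPM) with its 95% confidence interval from limma, 4 libraries per group, grouped by role; the dashed lines mark a 2-fold change either way. All intervals but those of Dnajc18 and Dnaja4 include 0, and 48 lie within the dashed lines.

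**Figure D3:**
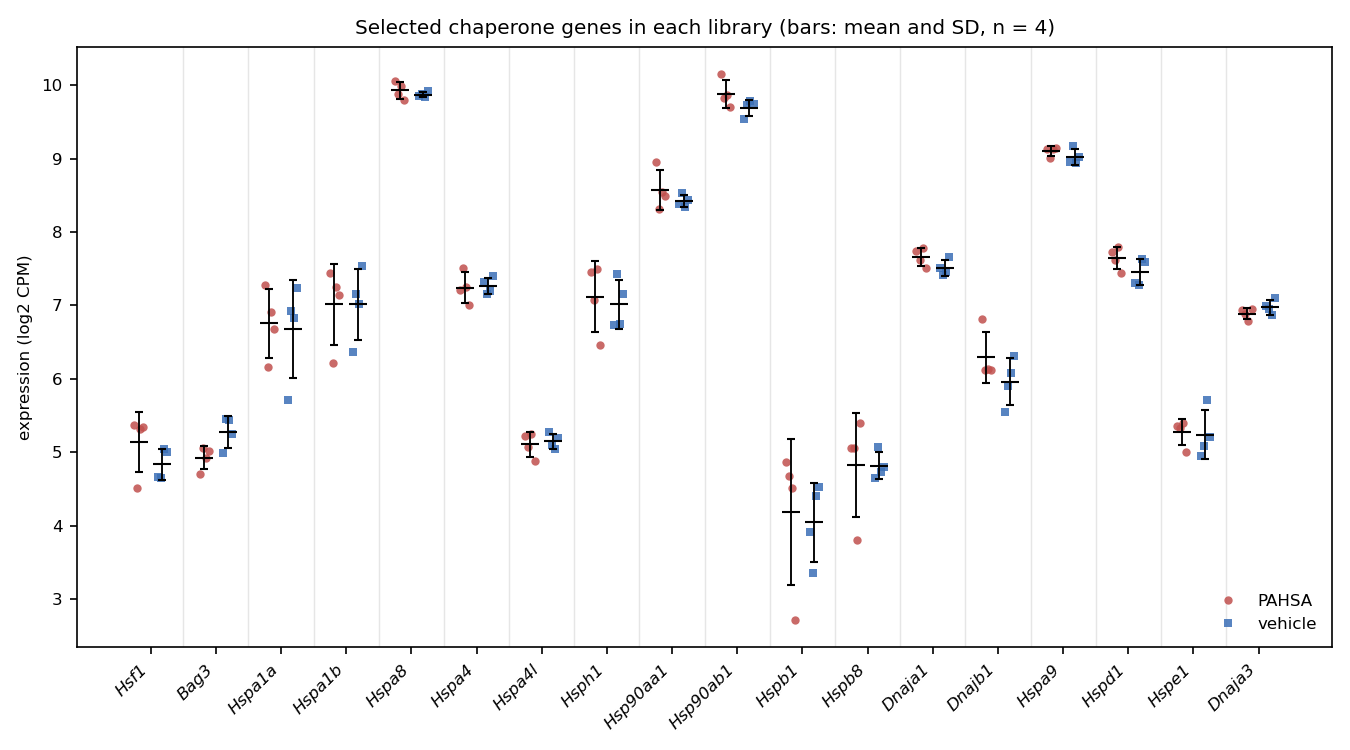
Expression (log2 CPM) in each library of the 18 members described whatever their p, PAHSA as red circles and vehicle as blue squares, with the mean and SD of the 4 libraries of a group. The groups overlap for every gene shown, and single libraries stand apart for Dnajb1 (PAHSA replicate 1, high), Hsf1 (PAHSA replicate 2, low) and Hspb1 (PAHSA replicate 4, low).

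The master regulator Hsf1 and its partner gene Bag3 differed in opposite directions, neither past the test. Hsf1 (chr15:76477422-76501913, GRCm38) had values of 5.38, 4.52, 5.32 and 5.35 log2 CPM in PAHSA replicates 1 to 4, against 4.66, 4.65, 5.04 and 5.004 in vehicle replicates 1, 3, 4 and 5. Of the PAHSA libraries, 3 lay above every vehicle library and replicate 2 lay below every one. The difference was 0.30 (SE 0.23), and 0.51 without PAHSA replicate 2, 0.22 without PAHSA replicate 1 and 0.17 with the acinar covariate. Bag3, a cochaperone that links Hsp70 to small heat shock proteins and to autophagy and is itself an HSF1 target, was at 4.70, 5.06, 4.93 and 5.02 log2 CPM in PAHSA, against 4.98, 5.45, 5.44 and 5.25 in vehicle. Its groups overlapped only through vehicle replicate 1, and the difference was -0.35 (SE 0.17; limma unadjusted p = 0.063, adjusted p = 0.698). It was from -0.45 to -0.28 when single libraries were left out. Hsf2, a second heat shock factor, was low at 1.60 to 3.14 log2 CPM in PAHSA and 1.25 to 2.92 in vehicle, and Hsbp1, which binds heat shock factor trimers, differed by 0.04 (SE 0.10). Of the 4 tested genes on the list of heat shock factors and their regulators, 3 had a higher and 1 a lower mean in PAHSA, and 0 had an unadjusted p under 0.05.

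Constitutive Hsc70, the everyday cytosolic Hsp70, had the smallest spread within groups of the set, with a pooled SD of 0.086 on the log2 scale for its gene Hspa8. Hspa8 (chr9:40800984-40810087), was at 10.06, 9.88, 10.00 and 9.80 log2 CPM in PAHSA, against 9.85, 9.88, 9.83 and 9.92 in vehicle. The PAHSA libraries lay on both sides of the narrow vehicle range. Its difference of 0.06 (SE 0.08) had a 95% confidence interval from -0.11 to 0.24. Under quantile normalization it was 0.25 (limma unadjusted p = 0.0406, adjusted p = 0.651). Of its 31-base words, 38.6% occur in the processed pseudogene Gm15459. Per kilobase of exon, Hspa8 averaged 223 CPM over all libraries, the second highest level of the set after Hsp90ab1 at 297 CPM per kilobase. Next came the mitochondrial Hsp70 gene Hspa9 at 124, Hsp90aa1 at 93.0, Hspd1 at 71.5 and Hspa1b at 48.3 CPM per kilobase.

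The stress-inducible pair Hspa1a (chr17:34969190-34972156) and Hspa1b (chr17:34956436-34959238) differed far more between libraries than between groups. Hspa1a was at 7.29, 6.16, 6.91 and 6.68 log2 CPM in PAHSA, against 5.72, 6.92, 6.84 and 7.24 in vehicle. Hspa1b was at 7.45, 6.21, 7.25 and 7.15 log2 CPM in PAHSA, against 6.37, 7.15, 7.02 and 7.53 in vehicle. Both genes were lowest in PAHSA replicate 2 and vehicle replicate 1 and highest in PAHSA replicate 1 and vehicle replicate 5. The differences were 0.08 (SE 0.32) for Hspa1a and -0.0038 (SE 0.29) for Hspa1b, and both changed sign when single libraries were left out. Of the 31-base words of Hspa1a transcripts, 63.8% also occur in Hspa1b, so how the 2 genes share reads depends on the quantification, and the sum is the safer value. Summed, they reached 331, 146, 272 and 244 CPM in PAHSA, against 135, 263, 244 and 337 CPM in vehicle. The sum thus varied over 2-fold within either group, and the group means were 248 ± 77.4 CPM in PAHSA and 245 ± 83.3 CPM in vehicle (SD, n = 4).

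The other cytosolic Hsp70 genes showed no difference beyond their spread. Hspa2, known for its part in sperm formation but present here, differed by -0.05 (SE 0.17), and Hspa12a, a distant relative, by 0.15 (SE 0.35). Hspa14, which joins the J protein of Dnajc2 at the ribosome, was at 4.92, 4.92, 4.87 and 5.38 log2 CPM in PAHSA, against 5.01, 4.31, 4.27 and 4.98 in vehicle. Only PAHSA replicate 4 lay above the vehicle range. The difference was 0.38 (SE 0.23), or 0.16 with the acinar covariate, and Dnajc2 differed by 0.02 (SE 0.20).

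Exchange factors of Hsp70 were likewise close in both groups. Hspa4 and Hspa4l, which encode Hsp110-type factors, differed by -0.02 (SE 0.12) and -0.04 (SE 0.15), and their signs changed with single libraries. Hsph1, the inducible Hsp110 gene with rows of heat shock units at its start, was at 7.46, 7.08, 7.50 and 6.46 log2 CPM in PAHSA, against 6.74, 7.43, 6.75 and 7.15 in vehicle. Its libraries spread over about the same range in both groups, at a difference of 0.11 (SE 0.24). Hspbp1, which helps Hsp70 to release its nucleotide, was at 5.95, 6.07, 5.86 and 6.07 log2 CPM in PAHSA, against 5.72, 5.85, 5.95 and 5.61 in vehicle. It differed by 0.20 (SE 0.13), with the groups overlapping through vehicle replicate 4. On the list of BAG domain and other Hsp70 cochaperones, 7 of 10 had a higher and 3 a lower mean in PAHSA and 0 had an unadjusted p under 0.05. Bag1, an exchange factor, differed by 0.16 (SE 0.11), and Hikeshi, which carries Hsp70 into the nucleus after heat, by 0.19 (SE 0.21).

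Both cytosolic Hsp90 genes were highest in PAHSA replicate 1. Hsp90ab1, the constitutive form (chr17:45567775-45573271), was at 10.15, 9.82, 9.86 and 9.71 log2 CPM in PAHSA, against 9.54, 9.73, 9.78 and 9.74 in vehicle. Hsp90aa1, the more inducible form, was at 8.96, 8.31, 8.54 and 8.50 log2 CPM in PAHSA, against 8.38, 8.54, 8.34 and 8.44 in vehicle. For Hsp90ab1 only PAHSA replicate 4 lay inside the vehicle range, whereas for Hsp90aa1 PAHSA replicate 2 lay under it and replicate 4 inside it. The differences were 0.19 (SE 0.10) for Hsp90ab1 and 0.15 (SE 0.13) for Hsp90aa1. Without PAHSA replicate 1 they were 0.10 and 0.03. Hsp90ab1 was at 0.25 without PAHSA replicate 4 and at 0.35 under quantile normalization (limma unadjusted p = 0.0325, adjusted p = 0.644), and Hsp90aa1 at 0.24 without PAHSA replicate 2. Of the 31-base words of Hsp90aa1, 51.5% occur in other annotated genes and 46.7% in the processed pseudogene Gm12346, against 13.2% in other genes for Hsp90ab1.

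Among 19 tested Hsp90 cochaperones, 11 had a higher and 8 a lower mean in PAHSA. An unadjusted p under 0.05 was found for 1 of the 19 and for 7.31% of all genes. The 1 gene was Ppid, which encodes the Hsp90-binding prolyl isomerase cyclophilin 40, at 5.91, 5.82, 5.84 and 6.0 log2 CPM in PAHSA, against 5.27, 5.51, 5.64 and 5.56 in vehicle. All PAHSA libraries lay above all vehicle libraries, where 4.01% of all genes did not overlap in either direction. The difference was 0.40 (SE 0.13; limma unadjusted p = 0.0134, adjusted p = 0.671), so it did not pass over all genes. Cdc37l1, a relative of the kinase cochaperone Cdc37, differed by 0.33 (SE 0.16). On the list of the cytosolic chaperonin TRiC and prefoldin, which fold actin and tubulin, 6 of 14 had a higher and 8 a lower mean, 0 had an unadjusted p under 0.05, and Cct5 and Cct7 differed by 0.13 (SE 0.08) and 0.11 (SE 0.10).

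Small heat shock proteins hold unfolding proteins without using ATP, and their 3 genes were uneven between libraries, with a median SD within groups of 0.51 on the log2 scale, against 0.24 over the set. Hspb1 was at 4.87, 4.67, 4.51 and 2.72 log2 CPM in PAHSA, against 3.91, 3.35, 4.40 and 4.53 in vehicle. Here 2 PAHSA libraries lay above the vehicle range and PAHSA replicate 4 lay below it. The difference was 0.14 (SE 0.46), and 0.64 without PAHSA replicate 4. Of its 31-base words, 52.3% occur in the processed pseudogene Hsp25-ps1. PAHSA replicate 4 was also the library with the least acinar RNA, and with the acinar covariate the Hspb1 difference was 1.02 (SE 0.35; limma unadjusted p = 0.0157, adjusted p = 0.616). The covariate was lowest in that same library, so the acinar level and other traits of that library cannot be told apart. Hspb8, the partner of Bag3, was at 5.06, 5.06, 3.80 and 5.39 log2 CPM in PAHSA, against 4.65, 5.07, 4.74 and 4.80 in vehicle. Its low library was PAHSA replicate 3, and it differed by 0.01 (SE 0.31). Hspb6 differed by -0.19 (SE 0.23), and Cryab, the alpha B crystallin gene outside the set, was near the lower limit at -1.95 to 0.65 log2 CPM in PAHSA and -1.003 to 2.12 in vehicle.

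The mitochondrial chaperones differed little between groups. Hspa9, the matrix Hsp70, was at 9.13, 9.01, 9.14 and 9.15 log2 CPM in PAHSA, against 8.95, 9.18, 8.95 and 9.02 in vehicle. All PAHSA values fell inside the vehicle range, and the difference was 0.08 (SE 0.08; 95% confidence interval from -0.10 to 0.26). Hspd1, the subunit of the folding chamber, was at 7.72, 7.62, 7.80 and 7.45 log2 CPM in PAHSA, against 7.31, 7.29, 7.63 and 7.59 in vehicle. Hspe1, the lid, was at 5.36, 5.34, 5.40 and 5.01 log2 CPM in PAHSA, against 4.94, 5.08, 5.72 and 5.22 in vehicle. Both genes of the shared promoter were lowest within PAHSA in replicate 4, and both had vehicle replicate 4 as the highest vehicle library. The differences were 0.19 (SE 0.12) for Hspd1 and 0.04 (SE 0.19) for Hspe1. With the acinar covariate they were 0.34 (limma unadjusted p = 0.0226, adjusted p = 0.633) and 0.27. The log2 CPM of Hspd1 exceeded that of Hspe1 by 2.28 to 2.44 in PAHSA and by 1.91 to 2.38 in vehicle libraries. Of their 31-base words, 53.1% for Hspd1 and 30.5% for Hspe1 occur in other annotated genes, for Hspd1 mostly in the processed pseudogene Hspd1-ps3 (46.5%).

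Among partners of the matrix machinery no gene passed the test either, though single differences were larger. Dnaja3, the J protein of Hspa9, differed by -0.08 (SE 0.10; 95% confidence interval from -0.30 to 0.14). Of the 8 mitochondrial members, 5 had a higher and 3 a lower mean in PAHSA, from -0.20 (Dnajc15) to 0.21 (Dnajc30). Among 15 tested partners and proteases outside the set, 10 had a higher and 5 a lower mean. An unadjusted p under 0.05 was found for 1 of the 15 and for 7.31% of all genes. The 1 gene was Oma1, a stress-activated protease of the inner membrane, at 4.44, 4.08, 4.71 and 4.20 log2 CPM in PAHSA, against 3.83, 3.67, 3.79 and 3.74 in vehicle. All PAHSA libraries lay above all vehicle libraries, where 4.01% of all genes did not overlap in either direction. The difference was 0.60 (SE 0.22; limma unadjusted p = 0.0193, adjusted p = 0.671). Grpel2, an exchange factor of the matrix Hsp70, differed by 0.38 (SE 0.21), and 0.24 without PAHSA replicate 1.

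J proteins made up 36 of the 58 members, the mitochondrial ones included, and the 2 smallest p-values of the set were among them. Of the class A genes, the general partners of Hsp70 in refolding, Dnaja4 (chr9:54698873-54716315) was at 7.07, 6.95, 6.79 and 6.93 log2 CPM in PAHSA, against 6.83, 6.47, 6.59 and 6.78 in vehicle. The groups overlapped between PAHSA replicate 3 and vehicle replicate 1. The difference was 0.27 (SE 0.12; limma unadjusted p = 0.0451, adjusted p = 0.673), and it was from 0.20 to 0.32 when single libraries were left out. Of the 31-base words of Dnaja4 transcripts, 43.2% also belong to the overlapping gene Wdr61, which differed by -0.02 (SE 0.12), and the library kit does not mark strand. Dnaja1, an HSF1 target, differed by 0.16 (SE 0.10), and Dnaja2 by -0.20 (SE 0.13), or -0.10 without PAHSA replicate 4 and -0.055 with the acinar covariate.

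In class B, Dnajb1, the inducible Hsp40 gene that also restrains HSF1, was at 6.81, 6.12, 6.13 and 6.12 log2 CPM in PAHSA, against 5.55, 5.90, 6.08 and 6.32 in vehicle. PAHSA replicate 1 stood alone above all others, and the other 3 PAHSA libraries lay inside the vehicle range. The difference was 0.33 (SE 0.21), and 0.16 without PAHSA replicate 1. Dnajb4, another HSF1 target, had the same high library at 5.22 log2 CPM, against 4.40 to 4.52 in the other PAHSA libraries and 4.27 to 4.67 in vehicle. Dnajb6, which prevents aggregation of polyglutamine proteins and has a row of heat shock units, differed by -0.02 (SE 0.11), and Dnajb2 by -0.05 (SE 0.13). Dnajb3 was weakly expressed, from 0.43 to 2.53 log2 CPM in PAHSA and from -0.59 to 1.82 in vehicle.

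Of the 7 J proteins of the ER, 5 had a lower mean in PAHSA, and of the other two Dnajc14 differed by 0.03 (SE 0.13) and Dnajc18 had the smallest p of the set. Dnajc18, a J protein of the ER membrane, was at 5.43, 5.49, 5.47 and 5.88 log2 CPM in PAHSA, against 5.53, 5.08, 4.60 and 5.02 in vehicle. PAHSA replicate 4 was the highest and vehicle replicate 4 the lowest, and vehicle replicate 1 lay among the PAHSA libraries. The difference was 0.51 (SE 0.21; limma unadjusted p = 0.0322, adjusted p = 0.671), and it was from 0.36 without vehicle replicate 4 to 0.67 without vehicle replicate 1. With the acinar covariate it was 0.25 (limma unadjusted p = 0.288, adjusted p = 0.84). Dnajb12 and Dnajb14, paired J proteins of the ER membrane that help to clear misfolded membrane proteins, differed by -0.32 (SE 0.19) and -0.29 (SE 0.18), which over the alternatives ran from -0.45 to -0.18 and from -0.43 to -0.17. Dnajc16 was at 4.03, 3.20, 4.90 and 2.98 log2 CPM in PAHSA, against 4.70, 4.53, 4.05 and 4.50 in vehicle. It was scattered in PAHSA, with 1 library above the vehicle range, and differed by -0.67 (SE 0.39), or from -1.04 to -0.39 over the alternatives.

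On a list of 8 ER chaperones outside the set all had lower means in PAHSA, where 50.9% of all genes did, with a median log2 fold change of -0.18. Sil1, an ER exchange factor counted above with the Hsp70 cochaperones, went the other way at 0.08 (SE 0.15). Of the 8, only Hyou1, an ER exchange factor, was lower at an unadjusted p under 0.05, where 4.29% of all genes were. It differed by -0.30 (SE 0.14; limma unadjusted p = 0.0477, adjusted p = 0.678), which over the alternatives ran from -0.39 to -0.13. Dnajc3, an ER J protein that also inhibits the kinase PERK, differed by -0.21 (SE 0.10). The summed level of the 8 was 5282, 5956, 5809 and 7161 CPM in PAHSA, against 6623, 6823, 6558 and 6467 CPM in vehicle. PAHSA replicate 1 was lowest and PAHSA replicate 4 highest for these genes, the reverse of their order in the summed level of the 58 members within PAHSA. This difference between the ER genes and the members was not tested.

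The remaining J proteins serve particular machines, and none had an unadjusted p under 0.05. All 3 genes of vesicles and endosomes had lower means in PAHSA: Dnajc5, the cysteine string protein of secretory vesicles, at -0.16 (SE 0.12), Dnajc6, the clathrin-uncoating auxilin, at -0.14 (SE 0.27) and Dnajc13 at -0.27 (SE 0.14). Dnajc13, which works on endosomes, was at 6.13, 6.22, 5.69 and 5.98 log2 CPM in PAHSA, against 6.15, 6.41, 6.25 and 6.28 in vehicle, so that only PAHSA replicate 2 reached the vehicle range. Of the 6 genes tied to ribosomes, diphthamide, splicing and histones, 5 had higher means, and Dnajc8, a splicing factor, differed by 0.28 (SE 0.19). Among the others, Dnajc27 differed by 0.54 (SE 0.37), or from 0.24 to 0.86 over the alternatives, and Dnajc12, a cochaperone of aromatic amino acid hydroxylases, by -0.08 (SE 0.15). Dnajc28 was at 2.36, 1.70, 3.36 and -6.32 log2 CPM in PAHSA, against 2.38, 2.70, 2.64 and 2.75 in vehicle. The value in PAHSA replicate 4 is the lowest of that library, which stands for no counts, and the fitted difference of -2.34 (SE 1.73) was -0.14 without it and 1.04 with the acinar covariate.

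The pattern that set libraries apart was a high level of inducible members in PAHSA replicate 1 and a low level in vehicle replicate 1. Over all 58 members the summed level was 6486, 5600, 5964 and 5542 CPM in PAHSA, against 5295, 5627, 5625 and 5810 CPM in vehicle, which is 0.530% to 0.649% of 1000000. PAHSA replicate 1 was highest and vehicle replicate 1 lowest, and the other PAHSA libraries overlapped the vehicle libraries. PAHSA replicate 1 was the highest library for 16 of 58 members (27.6%), against 14.6% of all genes. Of the 21 tested genes known as HSF1 targets after heat shock, 17 had a higher and 4 a lower mean in PAHSA. The share lower among all genes was 50.9%. Their median log2 fold change was 0.11, and 0 had an unadjusted p under 0.05, where 7.31% of all genes did. Without PAHSA replicate 1, Hspa1a (-0.099), Hsph1 (-0.0066), Hspb1 (-0.081) and Hspb8 (-0.064) turned to a lower mean in PAHSA. Dnajb4, Stip1 and Fkbp4 turned to a lower mean without it as well. Without vehicle replicate 1, those that turned to a lower mean in PAHSA were Hspa1a (-0.24), Hspb8 (-0.041) and Hspe1 (-0.064). Of the 21 genes 15 are members. For 7 of the 15 PAHSA replicate 1 was the highest of the 8 libraries. For 11 it was the highest or the second highest, as it was for 27.5% of all genes. PAHSA replicate 3 was the highest or the second highest for 8 of the 15, as it was for 26.7% of all genes. The mean of these 15 members was 6.94, 6.56, 6.68 and 6.46 log2 CPM in PAHSA, against 6.34, 6.60, 6.64 and 6.72 in vehicle. Bag3 went the other way and was lowest in PAHSA replicate 1.

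**Figure D4:**
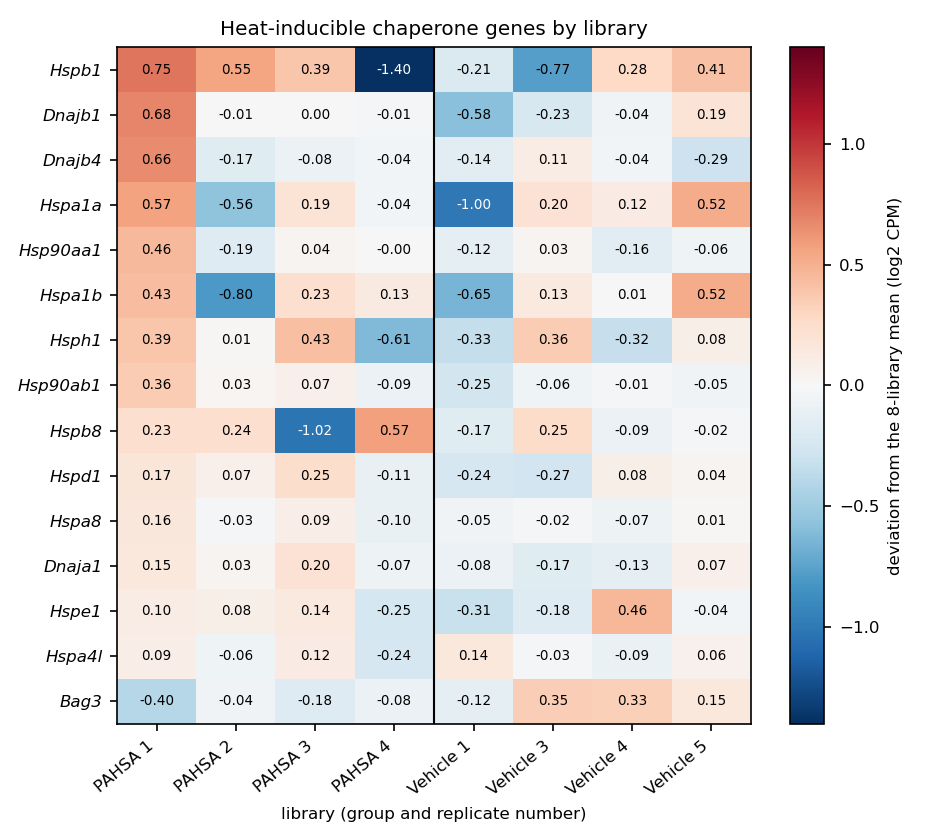
Deviation of each of the 15 inducible members from its mean over the 8 libraries (log2 CPM; red above, blue below; PAHSA libraries left of the line and vehicle libraries right of it). PAHSA replicate 1 is above the mean for every gene but Bag3, by up to 0.75 for Hspb1, and vehicle replicate 1 is below it for every gene but Hspa4l.

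**Figure D5:**
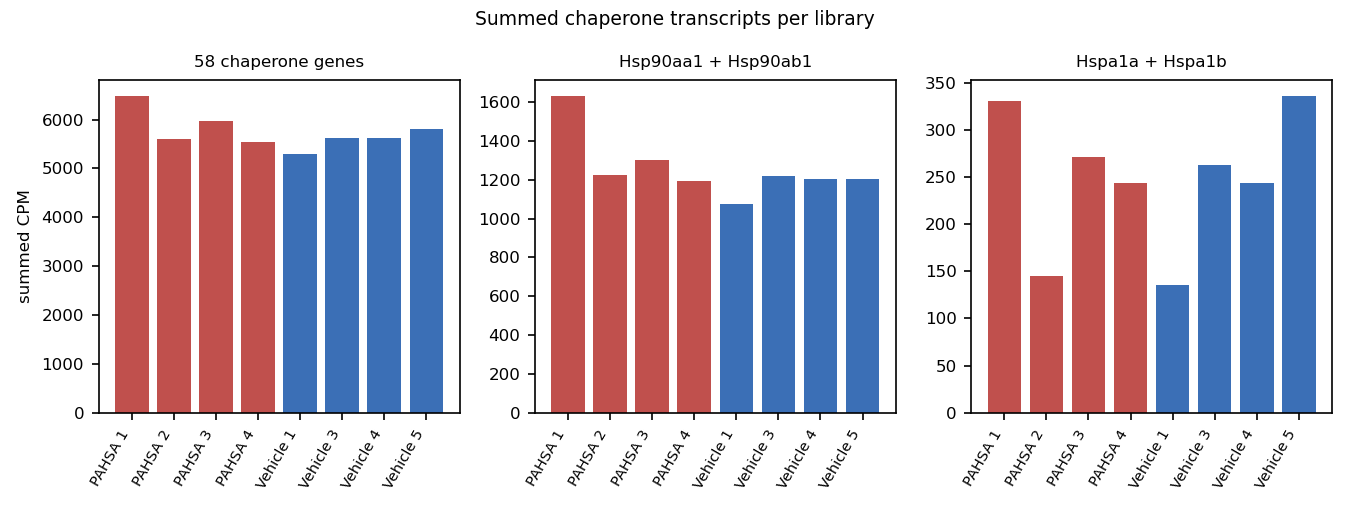
Summed CPM per library of the 58 members, of the Hsp90 pair and of the Hspa1 pair, PAHSA in red and vehicle in blue. PAHSA replicate 1 is the highest library in the first 2 panels, at 6486 and 1633 CPM, while the Hspa1 pair is highest in vehicle replicate 5 at 337 CPM and lowest in vehicle replicate 1 at 135 CPM.

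Genes that respond within minutes to handling did not all go one way in PAHSA replicate 1. The summed level of 18 tested immediate early genes was 1899, 2249, 2170 and 1982 CPM in PAHSA, against 2563, 2475, 2010 and 1993 CPM in vehicle, lowest in PAHSA replicate 1. Their mean was 5.40, 5.55, 5.43 and 5.43 log2 CPM in PAHSA, against 5.58, 5.67, 5.27 and 5.52 in vehicle, lowest in vehicle replicate 4. Of the 18 genes, PAHSA replicate 1 was the lowest library for 6 and the highest for 5, which were Jun, Jund, Fosb, Myc and Klf2. In PAHSA 12 of the 18 had a lower mean, where 50.9% of all genes did, and 3 were lower at an unadjusted p under 0.05, where 4.29% of all genes were. Among these 3, Zfp36 at -0.55 (SE 0.14) and Ier3 at -0.88 (SE 0.24) had all PAHSA libraries below all vehicle libraries, where 4.01% of all genes did not overlap, and both had a limma adjusted p of 0.671. The summed acinar level of PAHSA replicate 1 was 4588 CPM, between PAHSA replicates 4 and 3. The part of handling, or of cell types other than acinar cells, in the library differences of the chaperone genes was not tested.

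Members with and without a heat shock word in the promoter window were set side by side as a description. Of the 14 with a word, 10 had a higher and 4 a lower mean in PAHSA, where 50.9% of all genes were lower. Their median log2 fold change was 0.09, with a range from -0.35 (Bag3) to 0.54 (Dnajc27). Of the 10, Dnajb4, Hspa1a, Hspb1, Hspb8 and Hsph1 were lower without PAHSA replicate 1. Hspe1 was lower without PAHSA replicate 3, vehicle replicate 1 or vehicle replicate 3. Of the 4, Hspa1b was higher without PAHSA replicate 2, and Dnajb6 without PAHSA replicate 1. Hspd1 and Hspe1 share their row of units, and the Hspa1a and Hspa1b windows are nearly the same. These pairs are not separate cases. Most of the 14 are also on the list of HSF1 targets above, so much of their count repeats values given there. Whether words and direction go together was not tested. Of the 32 with a window but no word, 13 had a higher and 19 a lower mean, with a median of -0.04. Neither group held a member past the test.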

How the data were processed

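The library kit was Nextera XT, per the labels' protocols, and it does not mark strand. The authors deposited log2 CPM, the count per 1000000 counts on a log2 scale, for 13725 Ensembl genes in 8 libraries, made with kallisto and limma, per the submitters' processing notes. Of versions and genome build, the sources used here state none. CPM per library summed to between 965680 and 1069261, so the authors' scaling was not by the plain total. Estimated counts are a description of depth. They rest on the assumption that the lowest value of each library stands for no counts plus a fixed small offset.

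Symbols, positions and exon lengths came from GENCODE M21 (GRCm38), with 56 identifiers unmatched, and promoters from RefSeq (GRCm38.p6), which held windows for 46 members. Genes with a mean log2 CPM above 0 (12231; 1494 left out) were tested with limma 3.58.1 in R 4.3.3 (lmFit, eBayes with trend), two-sided, adjusted by Benjamini-Hochberg at 0.05 over all of them, with group as the only term. SE and 95% confidence intervals are limma's, and SDs are over 4 libraries. The script was tested on simulated data. Levels between genes are compared as CPM per kilobase of the union of exons. Shared 31-base words were counted over all GENCODE transcripts, 31 being the usual word length of kallisto.

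Members, gene lists and tests were chosen with earlier results of these data known. Always named were 18 regulators and chaperones, with the 10 further members of smallest p, the 2 members with the largest and the 2 with the smallest fold change, and from each list the 2 genes of smallest p; for the cell type lists counts and sums are given instead. Other genes named with values were chosen after these were seen. The numbers of the libraries, 1 to 4 in PAHSA and 1, 3, 4 and 5 in vehicle, did not pair them. Alternatives were 2 filters, a pseudocount of 1, 3 scalings, eBayes without trend, the acinar mean as a covariate and leaving out each library. A replicate block, and the libraries of that fit without the block, were the others.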

Additional observations from a re-analysis of the deposited data

Results flagged for a closer look

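In 12 of the 58 members, 1 of the 4 libraries of a group stood so far from the other 3 that its gap took up more of the group's whole range than Dixon's critical value at the 95% level allows. Both groups of each member were checked, 116 groups of 4 in all, and chance alone gives about 1 in 20. The share of all genes with such a library was not determined, so the count cannot be read as particular to the chaperones. PAHSA replicate 1 stood high for Dnajb1, at 6.81 log2 CPM against 6.12 to 6.13 in the other PAHSA libraries (gap 0.979 of the range), and for Dnajb4, at 5.22 against 4.40 to 4.52 (gap 0.845). PAHSA replicate 2 stood low for Hsf1, at 4.52 against 5.32 to 5.38 (gap 0.935), and for Hspa9, at 9.01 against 9.13 to 9.15 (gap 0.857). PAHSA replicate 4 stood low for Hspb1, at 2.72 against 4.51 to 4.87 (gap 0.833), for Hspe1, at 5.01 against 5.34 to 5.40 (gap 0.838), and for Dnaja2, at 6.41 against 6.80 to 6.85 (gap 0.867). It stood high for Dnajc18, at 5.88 against 5.43 to 5.49 (gap 0.872), and for Hspa14, at 5.38 against 4.87 to 4.92 (gap 0.908). In vehicle, replicate 4 stood high for Dnajc12, at 7.05 against 6.51 to 6.55 (gap 0.928), and for Hspa2, at 6.11 against 5.66 to 5.72 (gap 0.856), and replicate 3 stood high for Dnajc1, at 5.44 against 5.18 to 5.22 (gap 0.846). Of all libraries, PAHSA replicate 4 had the lowest summed acinar level, 477.5 CPM, and vehicle replicate 4 the highest, 52130 CPM. The members for which PAHSA replicate 4 stood apart were also fitted with the mean of the acinar markers as a covariate. Their differences were 1.02 for Hspb1, 0.27 for Hspe1, -0.055 for Dnaja2, 0.25 for Dnajc18 and 0.16 for Hspa14. Without the covariate they were 0.14, 0.04, -0.20, 0.51 and 0.38. The covariate was itself lowest in PAHSA replicate 4, at 2.92 log2 CPM against 6.70 to 10.2 in the other libraries. Its group means were 6.60 log2 CPM in PAHSA and 9.04 in vehicle. As the genes were picked by that same library, the fit cannot separate the acinar level from other traits of that library or group.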

How the results depend on the processing

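In all 18 alternatives 0 of the members tested had an adjusted p under 0.05. Of the 48 named genes, 36 kept the sign of their difference in every alternative run. Many of the 48 were picked for a small p or an extreme fold change in these same data, which favours a steady sign. Among the 18 members named whatever their p, Hspa1a, Hspa1b, Hsph1, Hspa4, Hspa4l, Hspb1, Hspb8 and Hspe1 changed sign in some alternative. The number of members higher at an unadjusted p under 0.05, 2 in the reported analysis, was 1 with libraries centred on their medians, 4 under quantile normalization, 1 without trend, and with the acinar covariate 2 other members, Hspb1 and Hspd1; it was 0 to 2 when single libraries were left out; the number lower, 0 as reported, was 0 to 2 when single libraries were left out. The median over the members was 0.12 with the acinar covariate, -0.0092 without PAHSA replicate 1 and -0.0080 without PAHSA replicate 3. With CPM rescaled to sum to 1000000, Hspa1b was at 0.024, Hspa4 at 0.0042 and Wdr61 at 0.0085, and under quantile normalization Hspa1b was at 0.012. With the acinar covariate, Hspa4 was at 0.13, Hspa4l at 0.038, Hspb8 at -0.32, Hsf2 at -0.066 and Dnajc28 at 1.04. When single libraries were left out, the difference ran from -0.24 to 0.28 for Hspa1a, from -0.22 to 0.26 for Hspa1b, from -0.019 to 0.33 for Hsph1, from -0.11 to 0.055 for Hspa4 and from -0.089 to 0.030 for Hspa4l. It ran from -0.089 to 0.64 for Hspb1, from -0.18 to 0.35 for Hspb8, from -0.064 to 0.19 for Hspe1, from -0.040 to 0.63 for Hsf2, from -0.036 to 0.078 for Hsbp1 and from -0.086 to 0.021 for Wdr61. The cause of these changes was not tested.

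Libraries with the same number in both groups (1, 3 and 4) did not deviate together, with correlations of -0.020, -0.017 and -0.022 across genes, so the numbers were not taken as pairs. With a replicate block on these 6 libraries 0 members were called, and the differences that changed sign were Hspa1b at 0.44, Hspb8 at -0.070, Hsbp1 at -0.057 and Wdr61 at 0.048. The same 6 libraries without the block gave the same values of 0.44, -0.070, -0.057 and 0.048. This was fixed by the design, since each block holds 1 library of either group, and is no test of pairing.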
